A study of Mus musculus with 4 samples.

Results

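Cpa3, Ms4a2, Fcer1a, Mcpt8, Hdc, Prg2, Gzmb, Cma1 and Tpsb2 are 9 genes whose products fill or trigger the granules of mast cells and basophils. They were taken by symbol from the platform annotation, and all 9 were measured among the 19938 genes with a probe set of their own, each by 1 probe set. Mast cells and basophils carry the high-affinity receptor for IgE, and its crosslinking by antigen releases preformed histamine and proteases. Both arise in bone marrow from stem and progenitor cells, and some of their genes, such as Cpa3, are already transcribed in early progenitors. In the mouse, chymase and tryptase proteins mark tissue mast cells, whereas Mcpt8 marks basophils.

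RNA came from bone marrow cells of C57BL/6 mice aged 8 weeks, gated as c-Kit+ and Sca-1+ without lineage markers and labelled haematopoietic stem cells (HSCs). Multipotent progenitors share this gate. There were 2 Affymetrix whole-transcript arrays of cells labelled Hif1a-/- and 2 of WT cells, called biological replicates and numbered 1 and 2 in each genotype. The product of Hif1a is the subunit of HIF-1, a transcription factor, that oxygen controls. The labels do not say which part of Hif1a was deleted, in which cells or by which Cre, nor whether animals were pooled. Values are the deposited log2 signals, on which 1 unit is a 2-fold change. Having only 2 arrays in a group set the precision of every value.

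Hif1a had a log2 signal of 10.58 and 10.64 on Hif1a-/- arrays 1 and 2, against 10.37 and 10.99 on WT arrays 1 and 2, so the genotypes overlapped. Its probe set may lie outside the deleted part and does not check the labels. Of 12 measured stem and progenitor markers (Ly6a, which encodes Sca-1, was not analysed here), 7 fell on the arrays numbered 2 relative to those numbered 1 at an adjusted p under 0.05 in limma with both genotypes pooled, against 2.93% of all genes. With an array left out the fallen numbered 2 to 11. Kit had 11.32 (Hif1a-/-) and 11.51 (WT) on the arrays numbered 2, against 12.37 (Hif1a-/-) and 12.57 (WT) on those numbered 1. The arrays thus stood apart by number rather than by genotype label. Across all genes, the 2 arrays numbered 2 correlated at 0.98 and the 2 numbered 1 at 0.99, against 0.96 for the Hif1a-/- arrays and 0.97 for the WT arrays. Results are given by number and by genotype for this reason.

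The mast cell and basophil genes separated the arrays by number, not by genotype. All 9 had higher signals on both arrays numbered 2 than on both arrays numbered 1, which held for 20.4% of all genes. In limma, 7 of the 9 rose on the arrays numbered 2 at an adjusted p under 0.05 over all genes, against 3.81% of all genes. The same 7 differed by at least 1 log2 unit, as did 2.42% of all genes. In bulk RNA, fewer cells of a type and less RNA per cell cannot be told apart. The median difference between the numbers was 1.77 log2 units over the 9 genes and −0.02 over all genes. That arrays differ by number in mast cell genes was known from earlier results of these data when the genes were chosen, so these counts are a description and not independent support. The signals of each array are shown gene by gene in the plot of signals by array.

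**Figure D1:**
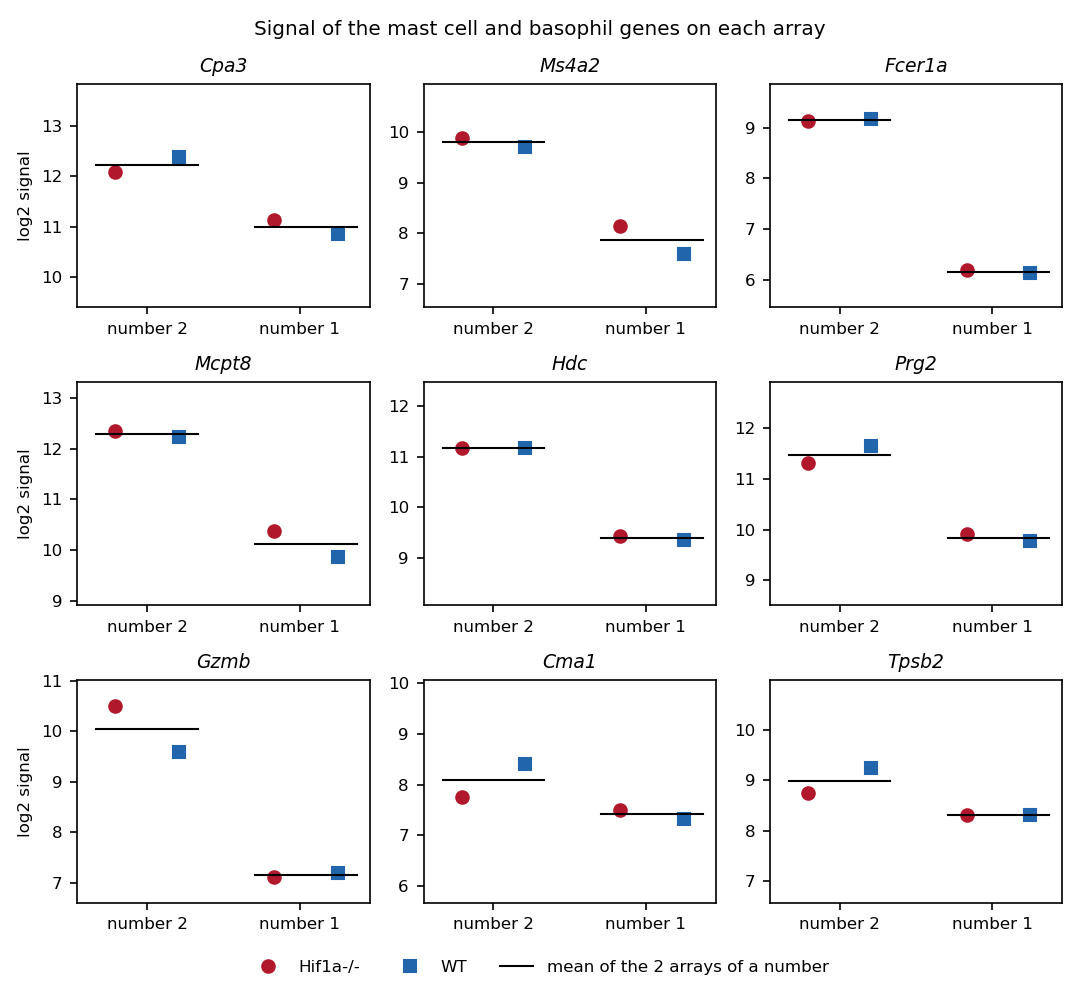
Log2 signal (vertical axis, each panel spanning the same number of log2 units) of the 9 genes on the Hif1a-/- (red circles) and WT (blue squares) arrays, grouped by array number; black lines are the mean of the 2 arrays of a number. In every panel both arrays numbered 2 lie above both arrays numbered 1, least so for Cma1 and Tpsb2.

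Fcer1a had the largest difference between the numbers of the 9 genes. It encodes the IgE-binding alpha chain of the high-affinity IgE receptor. It had a log2 signal of 9.15 on the Hif1a-/- array and 9.18 on the WT array numbered 2, against 6.19 on the Hif1a-/- array and 6.13 on the WT array numbered 1. The 2 genotypes were almost level within each number, and the arrays numbered 2 were higher by 3.0 log2 units (SE 0.11, 8.01-fold, 95% interval 6.65 to 9.66; adjusted p = 0.00162). Its mean on the arrays numbered 1, 6.16, lay at percentile 7.48 of all genes. The deposited table holds no detection calls, so that signal is not shown to be above background and the fold may be a lower bound. Ms4a2 encodes the signal-amplifying beta chain of the same receptor. It had 9.89 (Hif1a-/-) and 9.71 (WT) on the arrays numbered 2, against 8.15 (Hif1a-/-) and 7.59 (WT) on those numbered 1. Ms4a2 rose by 1.93 log2 units (SE 0.20, 3.8-fold, 95% interval 2.69 to 5.38; adjusted p = 0.00727), with the WT array numbered 1 the lowest of the 4.

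Fcer1g, the gamma chain that completes the receptor, is no member of the set but also differed between the numbers. It had 12.76 (Hif1a-/-) and 12.70 (WT) on the arrays numbered 2, against 11.81 (Hif1a-/-) and 11.55 (WT) on those numbered 1, and it rose by 1.05 log2 units (adjusted p = 0.012). The signalling genes behind the receptor were mixed. Of 17 listed genes 16 were measured, and Fcer1g alone rose while Plcg1 and Lat fell. Over all genes 3.81% rose and 2.93% fell, so 1 risen gene is near the share of all genes. Plcg1, a phospholipase activated by the receptor, differed by −1.11 (adjusted p = 0.0107) and the adaptor gene Lat by −0.93 (adjusted p = 0.0118). The median of the list was 0.08. Its counts depended on single arrays. Genes that rose numbered 3 without WT array 2 and 0 without WT array 1, and genes that fell 1 without Hif1a-/- array 1 and 0 without WT array 1.

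The stretches around the start sites of both receptor genes are shown because these genes moved together. They are printed 5′ to 3′ on the gene's strand from RefSeq (GRCm38.p6), 250 bases before to 50 after the start site, with each GATAA or its reverse complement TTATC in capitals. This is the core letter string bound by GATA factors, among them GATA2, which mast cells and basophils need. Fcer1a lies at chr1:173227180-173227479 (minus strand) and Ms4a2 at chr19:11623670-11623969 (minus strand).
Fcer1a: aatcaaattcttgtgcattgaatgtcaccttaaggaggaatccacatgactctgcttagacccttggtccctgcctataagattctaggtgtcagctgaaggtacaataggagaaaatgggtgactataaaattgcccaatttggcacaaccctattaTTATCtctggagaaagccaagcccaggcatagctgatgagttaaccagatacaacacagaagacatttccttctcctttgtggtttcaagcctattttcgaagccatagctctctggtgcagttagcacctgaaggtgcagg
Ms4a2: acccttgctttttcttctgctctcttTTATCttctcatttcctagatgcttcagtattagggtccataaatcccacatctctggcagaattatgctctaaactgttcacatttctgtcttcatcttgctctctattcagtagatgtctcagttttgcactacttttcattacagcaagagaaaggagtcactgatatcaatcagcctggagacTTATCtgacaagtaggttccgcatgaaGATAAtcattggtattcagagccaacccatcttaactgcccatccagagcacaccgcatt
The window of Ms4a2 held 3 such strings and that of Fcer1a 1.

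Hdc, which encodes the enzyme that makes histamine, had a log2 signal of 11.18 on the Hif1a-/- array and 11.17 on the WT array numbered 2, against 9.44 on the Hif1a-/- array and 9.36 on the WT array numbered 1. Within each number the genotypes lay within 0.08 log2 units of each other. Hdc rose on the arrays numbered 2 by 1.77 log2 units (SE 0.11, 3.42-fold, 95% interval 2.84 to 4.13; adjusted p = 0.00287). Prg2 encodes major basic protein, a granule protein that is most abundant in eosinophils. It had 11.31 (Hif1a-/-) and 11.65 (WT) on the arrays numbered 2, against 9.91 (Hif1a-/-) and 9.77 (WT) on those numbered 1. The WT arrays held both the highest and the lowest value, and Prg2 rose by 1.64 log2 units (SE 0.15, 3.12-fold, 95% interval 2.4 to 4.06; adjusted p = 0.00541).

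Among the proteases, Mcpt8 and Cpa3 are those already found in basophils and progenitors. Mcpt8, a serine protease of basophils, had 12.36 (Hif1a-/-) and 12.23 (WT) on the arrays numbered 2, against 10.38 (Hif1a-/-) and 9.87 (WT) on those numbered 1. It rose by 2.17 log2 units (SE 0.19, 4.51-fold, 95% interval 3.26 to 6.23; adjusted p = 0.00466), and the WT array numbered 1 was the lowest. Cpa3 encodes a carboxypeptidase stored in mast cell granules. It had 12.09 (Hif1a-/-) and 12.37 (WT) on the arrays numbered 2, against 11.14 (Hif1a-/-) and 10.85 (WT) on those numbered 1. The gap between the numbers was 1.94-fold in Hif1a-/- and 2.86-fold in WT. Over both genotypes Cpa3 rose by 1.24 log2 units (SE 0.16, 2.36-fold, 95% interval 1.8 to 3.09; adjusted p = 0.0122), and this call ended without WT array 1 (adjusted p = 0.083).

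Gzmb encodes granzyme B, a serine protease of cytotoxic lymphocytes that mast cells can also make. It had 10.51 (Hif1a-/-) and 9.59 (WT) on the arrays numbered 2, against 7.11 (Hif1a-/-) and 7.19 (WT) on those numbered 1. The Hif1a-/- array numbered 2 stood above the WT array of that number by 0.92 log2 units, and the arrays numbered 1 were nearly level. Gzmb rose on the arrays numbered 2 by 2.89 log2 units (SE 0.29, 7.43-fold, 95% interval 4.5 to 12.3; adjusted p = 0.00645). Its mean on the arrays numbered 1 lay at percentile 18.9 of all genes, so the limit given for Fcer1a holds here too.

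The proteases of mature tissue mast cells had the smallest differences. Cma1, a chymase, had 7.77 (Hif1a-/-) and 8.40 (WT) on the arrays numbered 2, against 7.51 (Hif1a-/-) and 7.33 (WT) on those numbered 1. Tpsb2, a tryptase, had 8.74 (Hif1a-/-) and 9.25 (WT) on the arrays numbered 2, against 8.31 (Hif1a-/-) and 8.31 (WT) on those numbered 1. In both genes the WT array numbered 2 was the highest, and the Hif1a-/- array numbered 2 lay closer to the arrays numbered 1. The arrays numbered 2 differed from those numbered 1 by 0.67 log2 units (SE 0.22, 1.59-fold, 95% interval 1.09 to 2.33; adjusted p = 0.167) for Cma1 and 0.68 log2 units (SE 0.18, 1.61-fold, 95% interval 1.17 to 2.2; adjusted p = 0.101) for Tpsb2, so neither passed. Both passed without Hif1a-/- array 2 (adjusted p = 0.000146 for Cma1 and 0.000126 for Tpsb2), with larger differences of 0.99 and 0.94. Without WT array 2 the differences were smaller, 0.35 for Cma1 (adjusted p = 0.0648) and 0.43 for Tpsb2, which passed (adjusted p = 0.0178). Without either array numbered 1, neither passed. All 4 Cma1 signals lay below 8.55, the median over all genes and arrays, and on the arrays numbered 1 its mean lay at percentile 24.1 of all genes.

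The windows around the start sites of Cpa3, Mcpt8 and Cma1 set the proteases that rose beside one that did not pass, again with GATAA or TTATC in capitals. Cpa3 lies at chr3:20242132-20242431, Mcpt8 at chr14:56085148-56085447 and Cma1 at chr14:55944626-55944925, all on the minus strand of GRCm38.p6 in RefSeq.
Cpa3: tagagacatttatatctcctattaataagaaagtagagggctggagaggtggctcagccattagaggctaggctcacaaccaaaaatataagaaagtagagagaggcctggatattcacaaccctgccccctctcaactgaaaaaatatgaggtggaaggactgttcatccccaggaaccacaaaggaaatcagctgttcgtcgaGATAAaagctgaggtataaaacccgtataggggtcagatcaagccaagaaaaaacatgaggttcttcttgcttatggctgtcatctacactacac
Mcpt8: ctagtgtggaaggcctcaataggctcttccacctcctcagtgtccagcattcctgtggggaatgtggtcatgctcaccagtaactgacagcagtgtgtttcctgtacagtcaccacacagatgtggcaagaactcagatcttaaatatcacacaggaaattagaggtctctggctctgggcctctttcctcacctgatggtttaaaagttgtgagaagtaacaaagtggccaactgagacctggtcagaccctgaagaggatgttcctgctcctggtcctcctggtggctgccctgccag
Cma1: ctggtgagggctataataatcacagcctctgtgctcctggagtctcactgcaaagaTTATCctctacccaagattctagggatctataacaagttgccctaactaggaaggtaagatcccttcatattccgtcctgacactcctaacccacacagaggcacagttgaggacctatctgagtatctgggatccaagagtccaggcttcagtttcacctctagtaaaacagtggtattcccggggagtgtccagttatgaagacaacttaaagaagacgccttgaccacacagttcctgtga
RefSeq windows were matched for 7 of the 9 genes, Prg2 and Tpsb2 being the others. The string occurred in 4 of the 7 windows (Cpa3, Ms4a2, Fcer1a and Cma1), against 25.4% of all 32851 windows of the same length, on either strand. CANNTG, the E-box read by basic helix-loop-helix factors such as MITF and identical on both strands, occurred in 6 of the 7 and in 72.3% of all windows. Of the genes that rose, Cpa3, Ms4a2 and Fcer1a hold GATAA in this window, and Mcpt8, Hdc and Gzmb do not. Cma1 holds both strings and did not pass with all 4 arrays. A part of these strings in the differences was not tested.

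**Figure D2:**
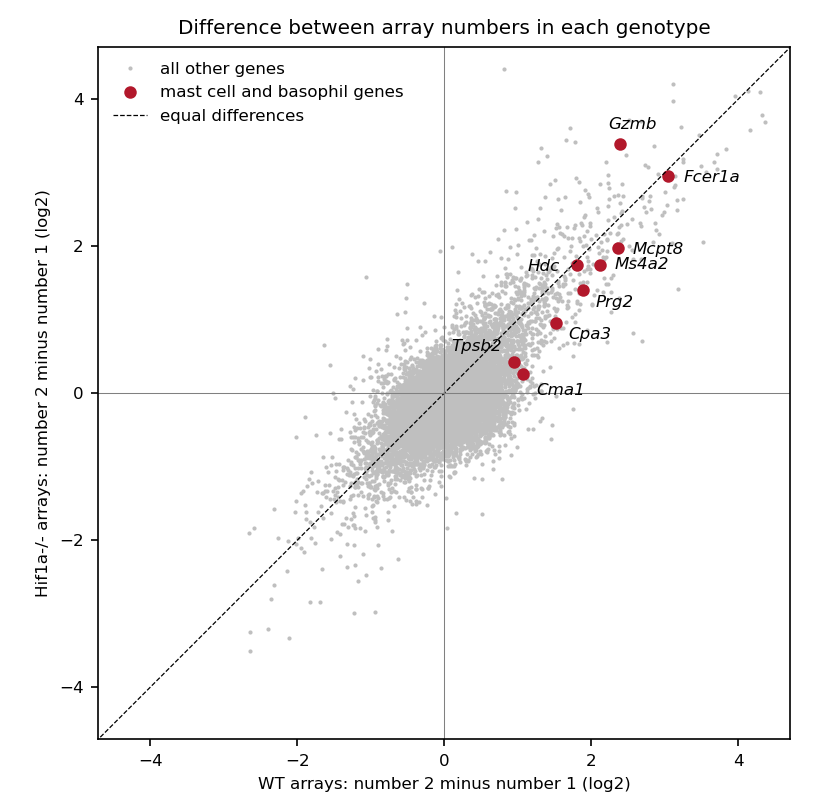
Log2 difference between the arrays numbered 2 and 1 for every gene, in Hif1a-/- (vertical axis) and in WT (horizontal axis), with the 9 genes in red and the line of equal differences dashed. Fcer1a and Hdc lie near the line, Gzmb lies above it (a larger difference in Hif1a-/-), and Cpa3, Cma1 and Tpsb2 lie below it.

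The size of the difference between the numbers was not the same in both genotypes for every gene. The median over the 9 genes was 1.74 log2 units in Hif1a-/- and 1.89 in WT. Gzmb differed by 3.39 in Hif1a-/- and by 2.40 in WT. Cma1 differed by 0.26 in Hif1a-/- and by 1.08 in WT, and Tpsb2 by 0.43 in Hif1a-/- and 0.94 in WT. Fcer1a was nearly even, at 2.96 in Hif1a-/- and 3.05 in WT. With 1 array for each genotype and number, these differences between genotypes could not be tested. Compared by profile over the 4 arrays, the closest members were Cma1 and Tpsb2. Ms4a2 and Mcpt8 came next, and then Hdc and Prg2. These pairs, each profile centred on its own mean, lay 0.15, 0.25 and 0.29 log2 units apart in Euclidean distance. Cma1 and Gzmb, at 2.49, were the farthest pair. Such a distance holds the size of the difference between the numbers as well as its shape.

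The comparison between the genotypes, the question of the study's design, gave no call among these genes. In limma 0 of the 9 passed over all genes, and 0 had an unadjusted p under 0.05, a level reached by 0.727% of all genes. This fit counted the gap between the numbers as spread, so a gene with a large gap could hardly reach that level. At the adjusted threshold the share of all genes was 0%. For none of the 9 did the 2 Hif1a-/- arrays lie wholly above or wholly below the 2 WT arrays. Their full split by number left no other outcome, so this count tells nothing about genotype. Over all genes 16.1% were higher without overlap and 8.33% lower. Hif1a-/- minus WT, the median over the 9 was 0.01 log2 units, beside 0.00 over all genes.

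Cpa3 averaged 11.61 ± 0.68 in Hif1a-/- and 11.61 ± 1.07 in WT (SD, n = 2 each). Its difference was 0.00 with a 95% interval of −1.79 to 1.79. The largest estimates were 0.42 for Gzmb (95% interval −3.67 to 4.52), 0.37 for Ms4a2 and 0.32 for Mcpt8, and on the other side −0.25 for Tpsb2 and −0.23 for Cma1. Prg2, Hdc and Fcer1a differed by −0.10, 0.04 and 0.01. Hdc, Fcer1a and Cpa3 lie so near 0 that a scaling which shifts all genes alike turns their sign, and no direction is given for them. The interval of Cma1 was −1.36 to 0.90. These intervals come from a fit without the array number, so the gap between the numbers is part of their width.

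**Figure D3:**
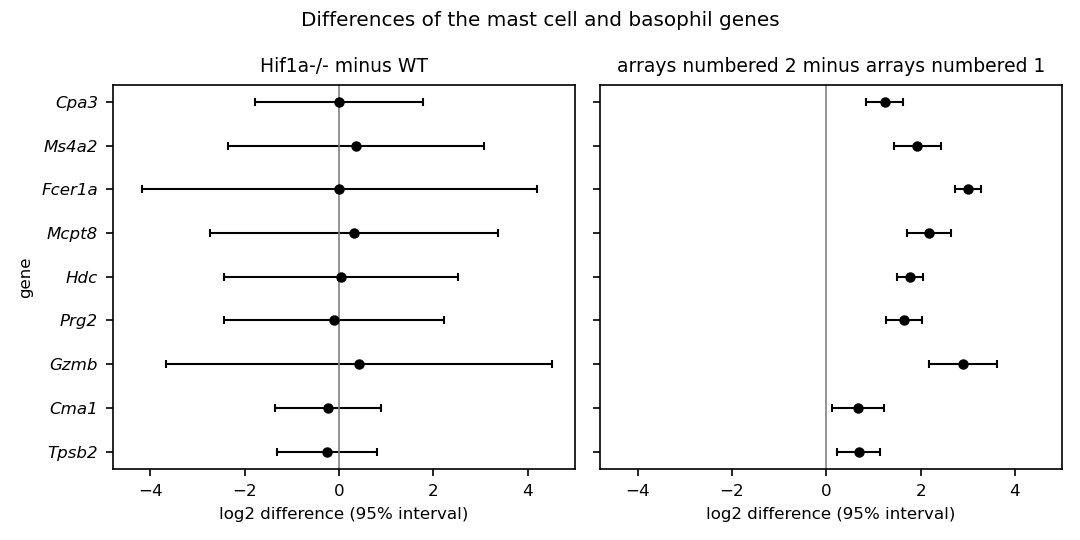
Log2 differences with 95% intervals from limma for the 9 genes, Hif1a-/- minus WT (left) and arrays numbered 2 minus arrays numbered 1 (right). All 9 intervals on the left include 0, and all 9 on the right lie above 0 before adjustment over all genes.

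Within a number, Hif1a-/- and WT were compared on 1 array each, with no test. On the arrays numbered 2 they ran from −0.64 for Cma1 and −0.51 for Tpsb2 to 0.92 for Gzmb. On the arrays numbered 1 they ran from −0.08 for Gzmb to 0.51 for Mcpt8 and 0.55 for Ms4a2. In 6 of the 9 genes the sign differed between the numbers. In 7 of the 9, all but Cma1 and Tpsb2, both genotype differences within a number were smaller than both differences between the numbers. The share of all genes with either pattern was not counted. The counts therefore only describe the 9 genes, which were chosen with the split by number known.

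Cma1, Mcpt8 and Gzmb belong to one cluster of chymase and granzyme genes on chromosome 14, where by RefSeq order Cma1 stands at one end of the measured genes and Gzmb at the other. Of the 13 measured genes of this cluster, Mcpt8 and Gzmb alone rose on the arrays numbered 2, beside 3.81% of all genes. The neighbours of Mcpt8 among the measured genes are Mcpt4, a mast cell chymase gene, and Ctsg, which encodes cathepsin G of neutrophils. Mcpt4 differed by 0.65 log2 units (adjusted p = 0.167) and Ctsg by 0.87 (adjusted p = 0.0603). Ctsg had 12.97 (Hif1a-/-) and 13.49 (WT) on the arrays numbered 2, against 12.26 (Hif1a-/-) and 12.45 (WT) on those numbered 1, with WT the higher genotype in each number. Gzmc, next to Gzmb among the measured genes, differed by 0.51 (adjusted p = 0.0594), and the granzyme genes between Ctsg and Gzmc by 0.07 to 0.14. These neighbours beyond Mcpt4 and Ctsg were picked after their values were seen. The granzyme genes between Ctsg and Gzmc had means over the 4 arrays at percentiles 3.1 to 22.1 of all genes. Mcpt1 and Mcpt2 lay at percentiles 6 and 5.5. At such low signals a change in these genes might not show. With an array left out, the number of genes of the cluster that rose became 6 without Hif1a-/- array 2 and 4 without WT array 2. Chymase and granzyme genes are alike in sequence, and probe sets of paralogs may share signal.

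**Figure D4:**
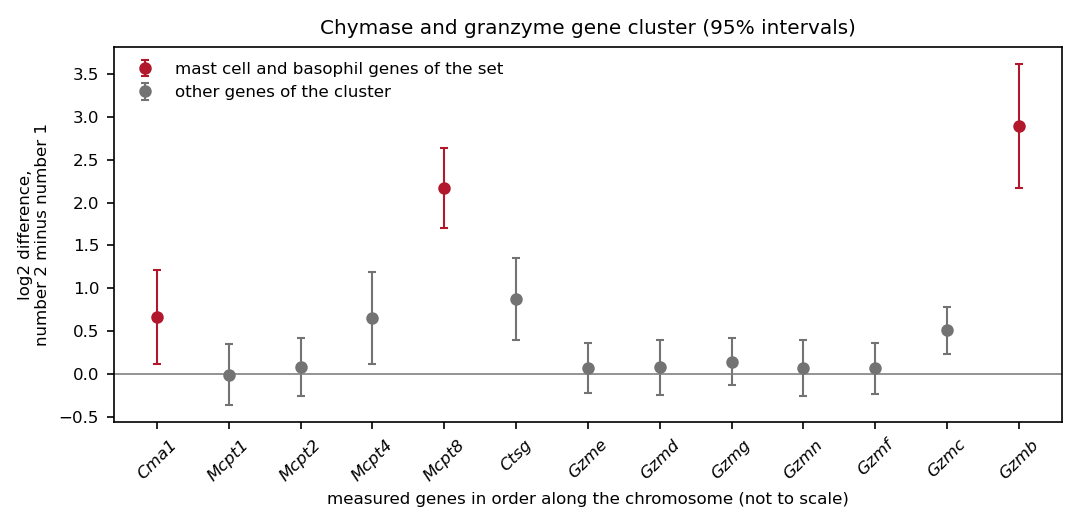
Log2 difference between arrays numbered 2 and 1, with 95% intervals, for the 13 measured genes of the chymase and granzyme cluster in chromosomal order. Mcpt8 and Gzmb stand at 2.17 and 2.89, and no other gene of the cluster exceeds 0.87.

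More of the other basophil genes than of the other mast cell genes rose, a difference between lists that was not tested. A rise was not particular to basophil genes, since 11 of 17 neutrophil and 7 of 9 monocyte and macrophage markers also rose. Of 16 further basophil genes 8 rose and 0 fell on the arrays numbered 2, with a median of 0.69 log2 units, against 3.81% and 2.93% of all genes. The number that rose was 3 without WT array 1, and the number that fell was 2 without Hif1a-/- array 2 and 1 without WT array 2. Prss34, a basophil serine protease, had 12.49 (Hif1a-/-) and 11.82 (WT) on the arrays numbered 2, against 10.77 (Hif1a-/-) and 9.86 (WT) on those numbered 1, and it rose by 1.84 (adjusted p = 0.0383). Csf2rb2 and Csf2rb, beta chains of the interleukin-3 receptor family, rose by 1.51 and 1.22. Both are also counted among the growth factor and cytokine receptor genes. Fcer1g, likewise among the risen basophil genes, is also counted among the signalling genes behind the IgE receptor. Cyp11a1, a steroidogenic enzyme gene, rose by 1.48. Among those that neither rose nor fell, picked after their values were seen, Il4, Il13, Itga2 and Ccl3 differed by −0.06, 0.06, −0.40 and −0.56. In genotype, Prss34 differed by 0.79 (SE 0.93), the chemokine gene Ccl9 by −0.57 (SE 0.22) and Ccl4 by 0.27, and none passed.

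Of 21 further mast cell genes 17 were measured, 1 rose and 1 fell, close to the 3.81% and 2.93% of all genes, and their median was 0.03. Alox5, which starts leukotriene synthesis, rose by 2.13 (adjusted p = 0.0048). Kit, the receptor for the mast cell growth factor and part of the sorting gate, fell by 1.06 (adjusted p = 0.0121). Slc18a2, the transporter that loads histamine into vesicles, differed by −0.91 (adjusted p = 0.0647), opposite in sign to Hdc. The tryptase gene Tpsab1 and the mast cell receptor genes Mrgprb1 and Mrgprb2, picked after their values were seen, differed by 0.03, −0.06 and 0.16. Their means over the 4 arrays lay at percentiles 25.3, 6.3 and 5 of all genes. At such low signals a change in Mrgprb1 or Mrgprb2 might not show. Tph1, which serves serotonin synthesis, differed by 0.70 between the numbers and by −0.29 in genotype, and Mcpt4 by −0.35 in genotype. With an array left out, the genes that rose numbered 3 without Hif1a-/- array 2 and 3 without WT array 2, and the genes that fell numbered 3 without Hif1a-/- array 2, 3 without WT array 2, 2 without Hif1a-/- array 1 and 0 without WT array 1.

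Among growth factor and cytokine receptor genes, 2 of 9 rose (Csf2rb and Csf2rb2) and Kit fell, while the fallen numbered 2 without Hif1a-/- array 2 and 0 without WT array 1. Over all genes 3.81% rose and 2.93% fell. The interleukin-5 receptor gene Il5ra differed by 0.23 between the numbers, and Csf2ra and Il9r by 0.36 and 0.26 in genotype. Of 16 transcription factor genes 3 rose and 1 fell, beside 3.81% and 2.93% of all genes, with a median of −0.04. Irf8 of the monocyte lineage and Cebpe of late granulocytes rose by 1.66 and 1.30, and Ikzf2 fell by 1.04. Gata2 itself, picked after its value was seen, had 10.91 (Hif1a-/-) and 11.06 (WT) on the arrays numbered 2, against 11.26 (Hif1a-/-) and 11.53 (WT) on those numbered 1, a difference of −0.42 that did not pass (adjusted p = 0.176). Between the genotypes Cebpa differed by −0.50 (SE 0.25), Hes1 by 0.49 and Gata1 by −0.37, and none passed. The transcription factor genes that rose numbered 7 without Hif1a-/- array 2, 5 without WT array 2 and 1 without Hif1a-/- array 1. Those that fell numbered 3 without Hif1a-/- array 2, 6 without WT array 2, 0 without Hif1a-/- array 1 and 0 without WT array 1.

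Markers of other cell types moved with the same split of the arrays, and their part in the results above was not tested. The counts of risen markers stand beside 3.81% of all genes. Of 12 eosinophil genes 8 were measured and 4 rose, among them Epx, the eosinophil peroxidase gene, by 2.25 and the ribonuclease gene Ear6 by 2.25. Epx had 10.74 (Hif1a-/-) and 11.19 (WT) on the arrays numbered 2, against 8.74 (Hif1a-/-) and 8.68 (WT) on those numbered 1, with WT the higher genotype on the arrays numbered 2, as for Prg2. The summed linear signal of the eosinophil list was 6105 (Hif1a-/-) and 6834 (WT) on the arrays numbered 2, against 2771 (Hif1a-/-) and 2743 (WT) on those numbered 1. With an array left out, the genes that rose numbered 7 without Hif1a-/- array 2 and 2 without Hif1a-/- array 1. Ccr3 and Alox15 differed by 0.44 and 0.36 in genotype, and neither passed.

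Cytotoxic lymphocyte markers are given because these cells also make granzyme B. Whether such cells add to the Gzmb signal was not tested. Of 15 markers 5 rose on the arrays numbered 2, among them the receptor genes Klrk1 by 2.43 and Il2rb by 2.14. Gzma, granzyme A, had 9.68 (Hif1a-/-) and 7.90 (WT) on the arrays numbered 2, against 6.53 (Hif1a-/-) and 6.63 (WT) on those numbered 1, a difference of 2.21 that did not pass (adjusted p = 0.0762). Il2rb had 10.25 (Hif1a-/-) and 8.85 (WT) on the arrays numbered 2, against 7.40 (Hif1a-/-) and 7.41 (WT) on those numbered 1. Like Gzmb, both genes were highest on the Hif1a-/- array numbered 2. On the arrays numbered 2 the median of Hif1a-/- minus WT was 0.62 for this list and 0.91 for the neutrophil markers. Prf1, Nkg7, Cd3e and Ctsw, picked after their values were seen, differed between the numbers by 0.44, 0.26, 0.28 and −0.18, and none passed. The summed linear signal of the list was 16903 (Hif1a-/-) and 13326 (WT) on the arrays numbered 2, against 9232 (Hif1a-/-) and 9527 (WT) on those numbered 1. The number that rose was 9 without Hif1a-/- array 2, 13 without WT array 2, 1 without Hif1a-/- array 1 and 1 without WT array 1. In genotype Gzma, Il2rb and Klrd1 differed by 0.84, 0.69 and 0.68, and none passed.

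Neutrophil markers rose in 11 of 17, with Chil3 and Mmp8 higher by 3.66 and 3.11. Their median difference between the numbers was 2.76 in Hif1a-/- and 1.31 in WT, and their summed linear signal was 107199 (Hif1a-/-) and 80550 (WT) on the arrays numbered 2, against 35523 (Hif1a-/-) and 43341 (WT) on those numbered 1. On the arrays numbered 2 the median of Hif1a-/- minus WT was 0.91 for the neutrophil markers and −0.04 for the mast cell and basophil genes. Monocyte and macrophage markers rose in 7 of 9 measured, with Ccr2 and Adgre1 higher by 2.55 and 1.91, and their summed linear signal was 20575 (Hif1a-/-) and 23526 (WT) on the arrays numbered 2, against 9796 (Hif1a-/-) and 8912 (WT) on those numbered 1. Without Hif1a-/- array 1 and without WT array 1, the number of neutrophil markers that rose was 4 in each case, and that of monocyte markers 3 and 2.

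On the other side, 7 of 12 stem and progenitor markers fell, among them the transcription factor genes Hlf by 2.95, Meis1 by 2.28 and Mecom by 1.84, beside 2.93% of all genes. Their summed linear signal was 11325 (Hif1a-/-) and 16399 (WT) on the arrays numbered 2, against 32615 (Hif1a-/-) and 35839 (WT) on those numbered 1. The number that fell was 11 without WT array 2, 3 without Hif1a-/- array 1 and 2 without WT array 1. Of 8 genes whose products such lineage gates commonly target 6 were measured. Ly6g and Cd8a rose, by 2.60 and 0.90, beside 3.81% of all genes. The risen numbered 4 without WT array 2, 0 without Hif1a-/- array 1 and 0 without WT array 1. Itgam, which encodes CD11b, differed by 0.91 (adjusted p = 0.254). The summed linear signal of these genes was 6181 (Hif1a-/-) and 3316 (WT) on the arrays numbered 2, against 2187 (Hif1a-/-) and 2310 (WT) on those numbered 1. Most of the Hif1a-/- sum on the array numbered 2 came from Ly6g and Itgam, at log2 signals of 11.21 and 11.11. Cd8a and Cd3e had 9.05 and 8.88 there. Ly6g is also on the neutrophil list, and Cd8a and Cd3e are on the cytotoxic lymphocyte list. No gene is listed at 0 on these arrays, since the lowest deposited log2 value was 3.08.

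**Figure D5:**
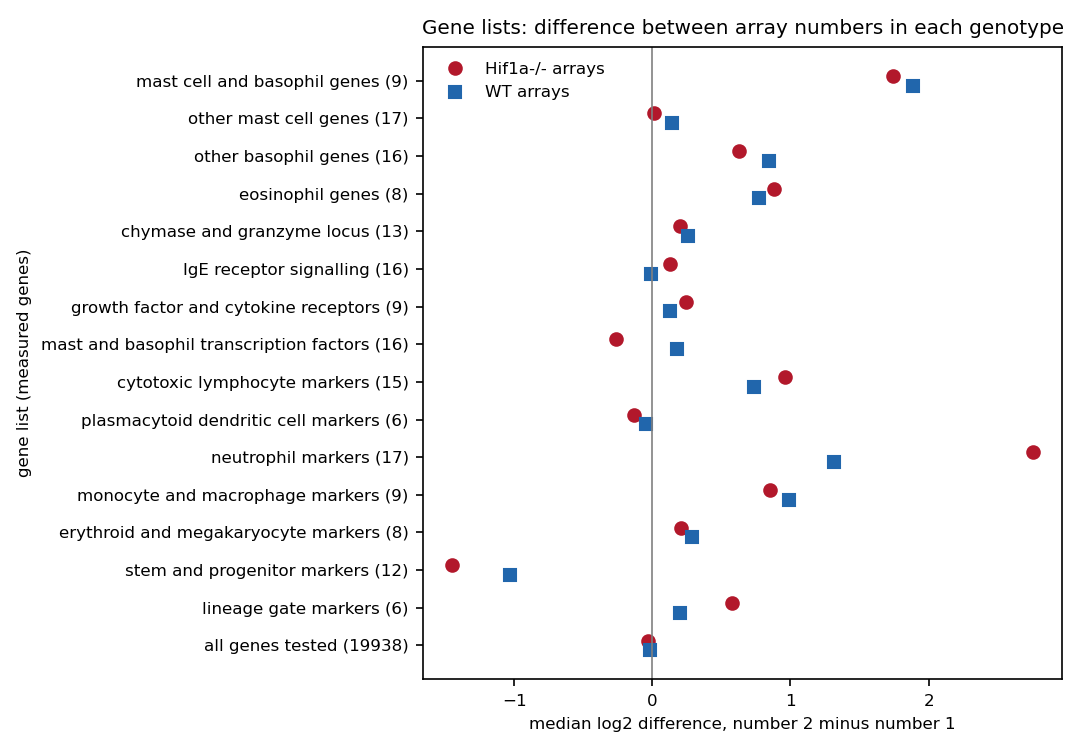
Median log2 difference between the arrays numbered 2 and 1 for each gene list, with the number of measured genes in brackets, in Hif1a-/- (red circles) and in WT (blue squares). The mast cell and basophil genes lie at 1.74 in Hif1a-/- and 1.89 in WT, other mast cell genes near 0, and stem and progenitor markers below 0 in both genotypes.

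The genes most like Cpa3 over the 4 arrays, by the smallest Euclidean distance between profiles centred on their own mean, were P2ry10b (0.07), Cd300c2 (0.08), Tspo (0.11), C3ar1 (0.12) and Acer3 (0.13), the distance in log2 units standing in brackets. For Mcpt8 they were H2-Ab1 (0.14), Klri1 (0.17), Cyp27a1 (0.17), Adgre5 (0.19) and Slamf8 (0.20). For the mean profile of the 9 genes they were Pfkp (0.10), Zdhhc2 (0.13), Gpr4 (0.15), Anxa2 (0.15) and Klra5 (0.15). None of these 15 is on the mast cell, basophil or eosinophil lists. With 4 arrays that split by number, any gene with the same gap between numbers and little difference between genotypes comes out as similar, and the distances are a description.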

How the data were processed

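Signals came from 4 Affymetrix whole-transcript arrays. Per the submitters' processing notes, the authors ran RMA (Affymetrix Expression Console 1.1) to give the deposited log2 values. RMA subtracts background, forces the arrays towards one distribution and summarises probe sets, so a shift common to all genes cannot be read from its values. The deposited medians over all probe sets still differed, at 8.35 (Hif1a-/-) and 8.19 (WT) on the arrays numbered 2. On those numbered 1 they were 8.32 (Hif1a-/-) and 8.31 (WT). The log base was read from the values (3.08 to 14.88). The sources used here name no genome build for the arrays.

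Arrays were grouped by title, and 0 columns belonged to other samples. Of 35556 probe sets 21789 had 1 gene symbol, 1621 had several and 12146 had none listed. The probe set with the highest mean was kept per gene (19938 genes), with no filter on dim genes. Genotypes and, in a separate fit, array numbers were tested by limma (version 3.58.1, R version 4.3.3; lmFit and eBayes, two-sided, without covariates), with Benjamini-Hochberg adjustment over all genes at 0.05. The steps were tested on simulated data. Named were all 9 genes, Hif1a, up to 3 genes per list by the size of each difference, and the 5 nearest profiles. The 9 genes and the 14 further lists were chosen with earlier results of these data known. Alternatives were a block on the array number (for the other fit, genotype as a covariate), omission of single arrays, quantile, median and cyclic loess scaling, removal of the 40% dimmest genes, the mean of all probe sets per gene, and eBayes with trend and robust. Residual spread with 1 array in an arm was taken from the other arm. Leaving out arrays for the other lists was added after the data were seen.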

Additional observations from a re-analysis of the deposited data

How the results depend on the processing

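The differences between array numbers kept their sign for all 9 genes in every alternative that gave a value. These were 97 values over 11 settings, all above 0, from 0.35 to 3.35 log2 units. Most could not have turned. Both arrays numbered 2 lay above both numbered 1 in every gene, so leaving out 1 array could not turn a sign. The genotype covariate, the eBayes options, the removal of dim genes and the mean of probe sets leave these estimates unchanged by design. Only quantile, median and cyclic loess scaling could have turned a sign, and none did. The number of the 9 called was 6 to 9 with an array left out, and the median over them 1.65 to 1.81. Over all genes the count of 1344 called ranged from 319 (without WT array 1) to 4661 (without WT array 2), and was 4602 without Hif1a-/- array 2, 458 without Hif1a-/- array 1 and 667 under median centring. Cpa3 missed the threshold without WT array 1 (adjusted p = 0.083), Cma1 and Tpsb2 passed without Hif1a-/- array 2, and Tpsb2 also without WT array 2. With the array number as a replicate block, the genotype fit called 0 of the 9 and 0 of all genes, with a median of 0.01, and changed the call of none of the 9. The block narrowed the standard errors, to 0.22 for Cma1 (0.41 without it), 0.13 for Fcer1a (1.51) and 0.13 for Hdc (0.89), and every adjusted p of the 9 was at least 0.98. Same-numbered arrays shared their deviations from the genotype means (r = 0.67 across genes, which are not independent replicates). The labels call the arrays biological replicates and do not say that a number marks a shared day or litter. Genotype estimates near 0 turned with scaling, which under median centring moved the median of all genes to −0.0843, against 0.0027 as deposited, and under cyclic loess to −0.0205. Under median centring Cpa3 was −0.0858, Fcer1a −0.0771 and Hdc −0.0452, and under cyclic loess Fcer1a was −0.0766. With an array left out, the genotypes no longer held 1 array of each number. The genotype median of the 9 then ranged from −0.78 to 0.95, Cpa3 from −0.76 to 0.76, Ms4a2 from −0.69 to 1.42, Fcer1a from −1.51 to 1.53, Mcpt8 from −0.86 to 1.50, Hdc from −0.86 to 0.95, Prg2 from −1.04 to 0.84, Gzmb from −1.27 to 2.12, Cma1 from −0.77 to 0.31 and Tpsb2 from −0.72 to 0.22, with 0 called in each case. Fcer1a and Cma1 were among the dimmest 40% of genes and have no value where these were left out; 6 of the remaining 7 rose there.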

Other observations

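Plasmacytoid dendritic cell markers had a median difference between the numbers of −0.14 log2 units. Of 6 measured 0 rose on the arrays numbered 2, beside 3.81% of all genes. Tcf4, a transcription factor gene of these cells, fell by 0.95 log2 units (adjusted p = 0.0151 in limma), beside 2.93% of all genes that fell. With an array left out the fallen numbered 3 without WT array 2, 0 without Hif1a-/- array 1 and 0 without WT array 1, and 1 rose without Hif1a-/- array 2. Ly6d and Bst2 differed by −0.52 and 0.43 and did not pass. In genotype Ccr9, Ly6d and Tcf4 differed by −0.19, 0.18 and −0.14, and none passed.

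Erythroid and megakaryocyte markers, whose cells share GATA factors with mast cells and basophils, were mixed. Of 8 measured 1 rose (the erythropoietin receptor gene Epor, by 0.55, picked after its value was seen). Another fell (the carbonic anhydrase gene Car2, by 0.86). Over all genes 3.81% rose and 2.93% fell. Car1, of the erythroid lineage, differed by 1.12 (adjusted p = 0.0939), and the platelet chemokine gene Pf4 had 7.88 (Hif1a-/-) and 9.14 (WT) on the arrays numbered 2, against 9.31 (Hif1a-/-) and 9.12 (WT) on those numbered 1. Pf4 was thus lowest on the Hif1a-/- array numbered 2, a pattern unlike that of the mast cell and basophil genes. Counts of risen genes were 4 without Hif1a-/- array 2, 2 without WT array 2, 0 without Hif1a-/- array 1 and 0 without WT array 1, and of fallen genes 3 without WT array 2, 0 without Hif1a-/- array 1 and 0 without WT array 1.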
